A study of Homo sapiens with 12 samples.

Results

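The ABC drug exporters described here are 6 genes of the ATP-binding cassette family, ABCB1, ABCC1, ABCC4, ABCC5, ABCC10 and ABCG2. They were taken from the deposited expression table by gene symbol, as transporters linked to the export of drugs or nucleotide analogues; the rule itself uses no measured value. All 6 were found among the 58735 genes of the table. Of these, 5 reached the level needed for testing, along with 13300 genes in all (1 FPKM or more in 3 or more libraries), and ABCG2 did not. FPKM counts sequenced fragments per kilobase of gene and per library size, so it compares levels per length. The RNA came from SEM cells, a long-kept line of acute lymphoblastic leukaemia of B cell precursor type that carries a KMT2A-AFF1 fusion. The 4 groups of 3 libraries were IKZF1 knockout cells given 1 µM cytarabine (AraC) for 16 hours, untreated IKZF1 knockout cells, wild-type cells given the same AraC dose, and untreated wild-type cells, below called KO and WT. Ikaros, the product of IKZF1, is a DNA-binding regulator of lymphocyte development, and AraC is a cytidine analogue that stalls DNA replication after incorporation. The labels name 1 knockout genotype and do not say whether it is 1 clone, nor whether replicates came from separate cultures. What the p-values measure is therefore the spread among these libraries, and that spread may be technical.

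ABC exporters use ATP to move substrates out across the plasma membrane, and they are known for lowering the drug that stays in leukaemia cells. ABCB1 (P-glycoprotein) and ABCG2 (breast cancer resistance protein) carry many unrelated drugs, and ABCC1 carries glutathione conjugates among others. ABCC4 and ABCC5 export cyclic nucleotides and phosphorylated nucleoside analogues. ABCC10 is a further ABCC member with a broad range of drug substrates. AraC enters cells through SLC29A1 and is phosphorylated there by the kinase DCK.

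Reads assigned to genes were 22733932 in WT AraC replicate 1 and 16342979 to 16913784 in the other 11 libraries. KO AraC replicate 3 stood apart from its group. Set against the other 2 KO AraC libraries, its recovered reads gave chi-square values of 6.43 and 7.95 per degree of freedom, against 2.24 to 4.26 for all other replicate pairs. IKZF1 itself stood at 14.2, 14.3 and 14.98 FPKM in KO AraC libraries, 20.52, 21.5 and 21.3 in untreated KO, 14.2, 14.8 and 15.3 in WT AraC and 22.1, 22.6 and 22.4 in untreated WT. A gene-wide RNA level does not show whether a coding sequence is disrupted, so it does not check the genotype labels. Of the 10 B cell precursor markers, 9 were above 1 FPKM. Their summed FPKM was 624 to 635 in KO AraC, 882 to 886 in untreated KO, 413 to 443 in WT AraC and 615 to 637 in untreated WT libraries. Of the 6 T cell markers, CD2, CD3D, CD3E, CD3G and CD8A were at or below 0.1 FPKM, and TRAC was at 67.5 to 80.1. Among 6 myeloid markers MPO and ELANE were at or below 0.1, and the summed level was 2.93 to 4.21 in KO AraC, 1.58 to 2.08 in untreated KO, 6.32 to 7.72 in WT AraC and 2.99 to 4.39 in untreated WT. The 4 erythroid markers summed to at most 0.0295 FPKM in any library. The 4 fibroblast markers summed to 2.08 to 2.32 FPKM in KO AraC, 0.959 to 1.34 in untreated KO, 0.735 to 0.947 in WT AraC and 0.284 to 0.407 in untreated WT, with COL1A2, COL3A1 and DCN at or below 0.1. The part of these marker levels in the exporter results was not tested. In bulk RNA, fewer cells expressing a gene and less RNA per cell cannot be told apart.

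Promoter windows are shown for the 3 exporters whose RNA passed the test in at least 1 comparison. They come from RefSeq on GRCh38.p14, where 5 of the 6 exporters had entries, with 11 windows in all; ABCC1 had none. Each window runs from 250 bases before a transcript start to 50 after it and is written along the gene's own strand, which is the minus strand for all 3. Searched on both strands were the E-box of MYC and MAX, spelled CACGTG, and the antioxidant element, spelled TGACNNNGC. Further motifs were the core bound by Ikaros, spelled TGGGAA, and the C/EBP-ATF element, spelled TGATGNAA. The last were the CCAAT box, spelled by its name, and the GC box, for which the letters were GGGCGG. Capitals mark the matches, and none of the marked matches overlaps another.
ABCB1, chr7:87600835-87601134: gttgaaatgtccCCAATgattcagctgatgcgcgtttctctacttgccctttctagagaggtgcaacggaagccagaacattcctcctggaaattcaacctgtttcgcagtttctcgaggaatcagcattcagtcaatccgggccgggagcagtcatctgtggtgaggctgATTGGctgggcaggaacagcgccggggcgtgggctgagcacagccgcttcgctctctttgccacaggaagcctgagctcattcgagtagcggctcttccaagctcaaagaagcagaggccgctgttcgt
ABCC4, chr13:95301402-95301701: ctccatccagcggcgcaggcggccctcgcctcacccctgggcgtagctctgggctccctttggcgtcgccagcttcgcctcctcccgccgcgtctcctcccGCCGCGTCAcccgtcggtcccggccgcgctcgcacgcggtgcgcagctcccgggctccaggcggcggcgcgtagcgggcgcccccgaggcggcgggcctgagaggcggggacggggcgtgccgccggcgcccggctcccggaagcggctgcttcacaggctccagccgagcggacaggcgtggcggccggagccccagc
ABCC5, chr3:184017835-184018134: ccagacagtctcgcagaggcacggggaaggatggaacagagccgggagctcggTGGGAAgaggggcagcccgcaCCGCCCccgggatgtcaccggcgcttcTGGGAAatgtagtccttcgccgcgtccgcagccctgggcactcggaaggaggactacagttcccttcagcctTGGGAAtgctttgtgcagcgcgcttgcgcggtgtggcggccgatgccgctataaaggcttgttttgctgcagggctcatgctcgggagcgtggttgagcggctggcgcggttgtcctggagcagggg
The ABCB1 window held 2 CCAAT matches, 1 on each strand, and 34.6% of the 35116 windows in the table held at least 1. A second listed ABCB1 start, at chr7:87713246-87713545, held none of the 6 motifs, and counts per gene cannot separate the 2 starts. The ABCC4 window held 1 TGACNNNGC match, on the opposite strand, a motif found in 13.3% of windows. In the ABCC5 window 3 TGGGAA matches lay on the gene's strand, against a share of 24.0% of windows with at least 1, and 1 GGGCGG match lay on the opposite strand, against 45.0%. The ABCC10 windows held E-box, antioxidant, Ikaros core and GC box matches, and those of ABCG2 held E-box, antioxidant, C/EBP-ATF and GC box matches. The E-box occurred in 7.26% of all windows and the C/EBP-ATF element in 3.62%. A match is a description of letters and does not show that a factor binds.

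**Figure D1:**
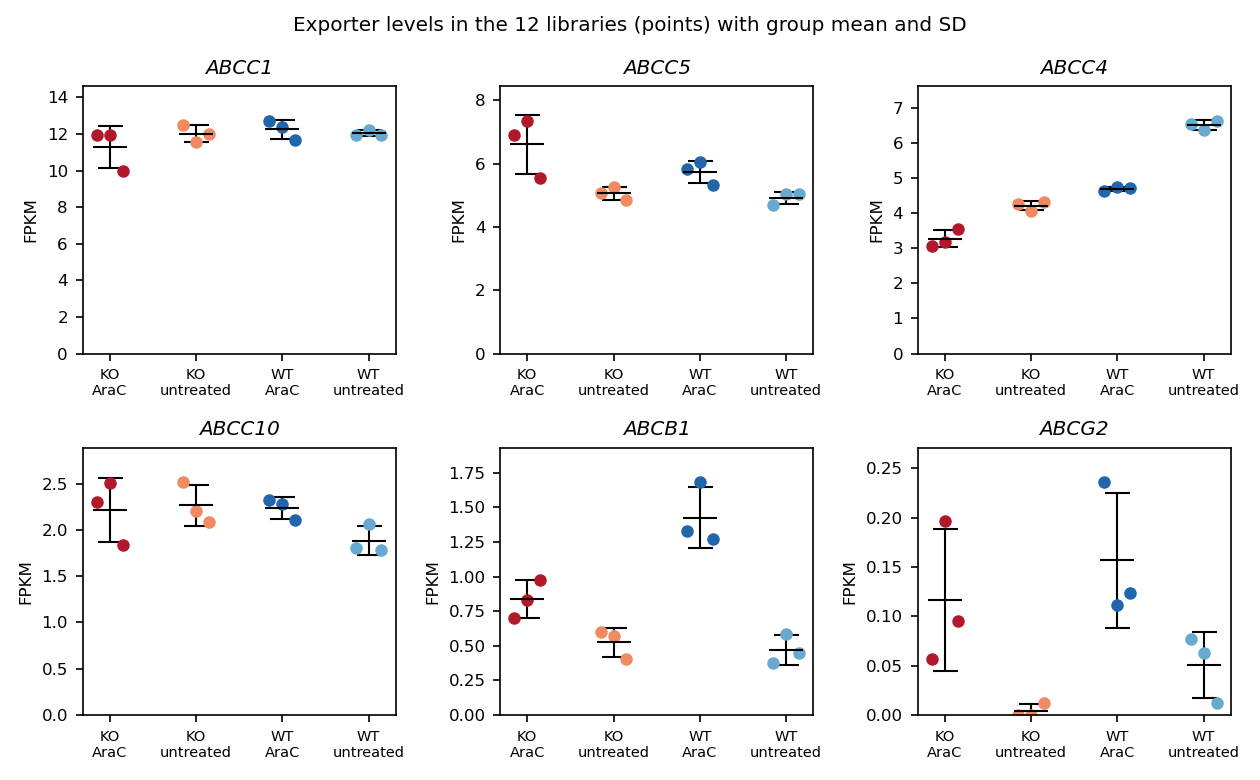
FPKM of each exporter in the 12 libraries (points), with the group mean and SD (bars), one panel per gene and each y axis starting at 0. The 4 groups of ABCC4 do not overlap, ABCB1 is highest in the WT AraC libraries at 1.27 to 1.68 FPKM, and ABCC1 lies between 9.98 and 12.7 FPKM throughout.

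The exporters covered a wide range of levels. In KO AraC libraries ABCC1 averaged 11.3 FPKM, ABCC5 6.61, ABCC4 3.27, ABCC10 2.21, ABCB1 0.836 and ABCG2 0.116. The order was the same in untreated KO and in WT AraC libraries, and in untreated WT libraries ABCC4, at 6.51 FPKM, stood above ABCC5, at 4.93. In none of the 4 groups did the ranges of 2 genes next to each other in this order overlap. Seen against the 13300 tested genes, ABCC1 in KO AraC libraries was above 67.3% of them, ABCC4 above 32.1% and ABCB1 above 4.68%. The exporters known for phosphorylated nucleoside analogues thus had middle levels and the pumps ABCB1 and ABCG2 low ones. In the table, ABCC10 shares 79 exon bases with DLK2, a gene on the other strand that reached at most 0.182 FPKM; none of the other 5 exporters shares exon bases with another gene.

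ABCC4 (MRP4, which exports cAMP, cGMP and nucleoside monophosphate analogues) fell with AraC in both genotypes and was lower in KO than in WT cells in both treatments. The gene (ENSG00000125257) lies at chr13:95019829-95301475 on the minus strand. Its level was 3.08, 3.19 and 3.55 FPKM in KO AraC libraries, 4.26, 4.07 and 4.32 in untreated KO, 4.63, 4.75 and 4.70 in WT AraC and 6.53, 6.37 and 6.63 in untreated WT. All 3 libraries of each group lay apart from those of every other group, KO AraC lowest and untreated WT highest. The means were 3.27 ± 0.247 FPKM in KO AraC, 4.21 ± 0.128 in untreated KO, 4.70 ± 0.0587 in WT AraC and 6.51 ± 0.131 in untreated WT (SD, n = 3 each). On the log2(FPKM + 0.5) scale, on which all differences below are given and which understates changes of low genes, the AraC difference was -0.32 in KO (SE 0.053, adjusted p = 0.00054) and -0.43 in WT (SE 0.053, adjusted p = 5.8e-05) in limma with Benjamini-Hochberg adjustment. The ratio of mean FPKM between AraC and untreated was 0.777 in KO and 0.721 in WT. The KO difference from WT was -0.46 with AraC (95% interval -0.58 to -0.35, adjusted p = 7.7e-05) and -0.57 untreated (-0.69 to -0.46, adjusted p = 1.4e-05). The 4 calls held in each of 24 alternative settings. The difference between the AraC effects in KO and in WT was 0.11 (95% interval -0.06 to 0.27, adjusted p = 0.48), which did not pass.

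Much of chromosome 13 was also lower in KO than in WT cells. Of its 225 tested genes, ABCC4 among them, 141 passed as lower and 7 as higher with AraC, and 147 as lower and 8 as higher untreated. The lower calls made up 62.7% of them with AraC and 65.3% untreated, against 14.8% and 12.6% of all tested genes, and the median differences were -0.43 and -0.49, close to the values of ABCC4. Over all 13300 genes the medians were 0.00 with AraC and 0.01 untreated. Of 5 tested protein-coding genes within 2 Mb of ABCC4, 3 were lower in KO in both treatments, and the nearest were GPR180 (-0.36 with AraC and -0.28 untreated), TGDS (-0.74 and -0.35), DNAJC3 (-0.60 and -0.63) and DZIP1 (0.19 in both, not passing, adjusted p = 0.087 with AraC and 0.093 untreated). For AraC against untreated, the chromosome's median difference was -0.03 in KO and -0.04 in WT. Of its tested genes 13.8% passed as higher and 20.9% as lower in KO, and 15.6% and 25.3% in WT. Over all tested genes these shares were 19.8% and 24.7% in KO, and 24.1% and 25.6% in WT. The part of the chromosome-wide KO to WT difference in the ABCC4 result was not tested.

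**Figure D2:**
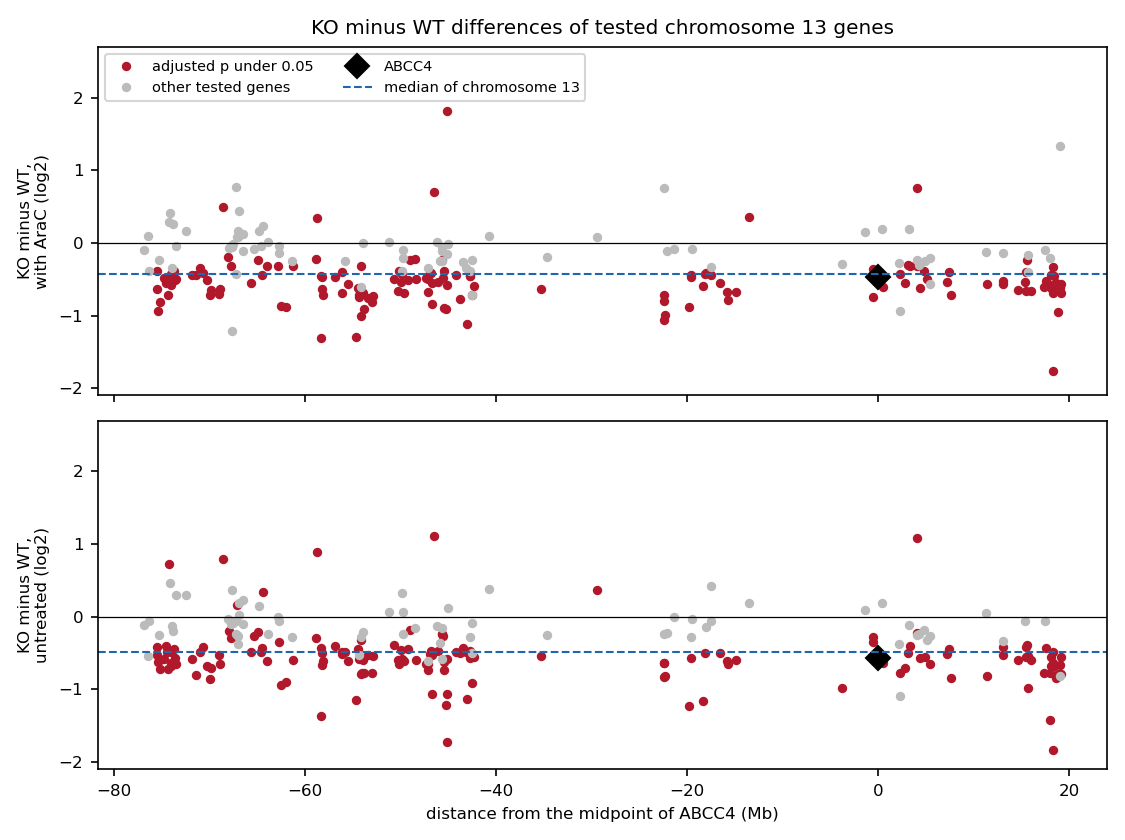
KO minus WT difference (log2 scale) of the 225 tested chromosome 13 genes against their distance from the midpoint of ABCC4 in Mb, with AraC above and untreated below. Red points passed the test, the dashed lines are the chromosome medians of -0.43 with AraC and -0.49 untreated, and ABCC4 (diamond) lies near them.

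ABCC5 (MRP5, a second exporter of cyclic nucleotides and nucleoside monophosphate analogues) rose with AraC in KO cells. The gene (ENSG00000114770) lies at chr3:183919934-184018015 on the minus strand. It stood at 6.91, 7.35 and 5.56 FPKM in KO AraC libraries, 5.09, 5.26 and 4.84 in untreated KO, 5.83, 6.04 and 5.34 in WT AraC and 4.70, 5.03 and 5.05 in untreated WT. In both genotypes each AraC library was above each untreated one, and the lowest AraC library in KO was replicate 3, the one that stood apart. The means were 6.61 ± 0.932 FPKM in KO AraC against 5.06 ± 0.208 in untreated KO, and 5.74 ± 0.359 in WT AraC against 4.93 ± 0.194 in untreated WT (SD, n = 3 each). The AraC difference was 0.35 in KO (95% interval 0.16 to 0.54, adjusted p = 0.0072), and it passed in each of 24 alternatives. In WT it was 0.20 (0.01 to 0.39) and missed the threshold by limma with Benjamini-Hochberg adjustment (adjusted p = 0.076; 0.011 to 0.21 over 24 alternatives, of which 6 passed). The 2 effects differed by 0.15 (-0.12 to 0.41, adjusted p = 0.57). KO and WT libraries overlapped both with AraC, where the difference was 0.18 (adjusted p = 0.14), and untreated, where it was 0.04 (adjusted p = 0.80). Without KO AraC replicate 3 the KO difference from WT with AraC was 0.29 and passed (adjusted p = 0.0071).

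ABCC10 (MRP7) showed small differences that did not pass in any comparison. The gene (ENSG00000124574) lies at chr6:43427366-43450430 on the plus strand. It stood at 2.30, 2.51 and 1.83 FPKM in KO AraC libraries, 2.51, 2.20 and 2.08 in untreated KO, 2.32, 2.28 and 2.11 in WT AraC and 1.80, 2.07 and 1.78 in untreated WT. Only the untreated WT libraries lay apart, below both the WT AraC and the untreated KO libraries. The AraC difference was -0.03 in KO (95% interval -0.26 to 0.20, adjusted p = 0.83) and 0.20 in WT (-0.03 to 0.43, adjusted p = 0.14). KO differed from WT by -0.02 with AraC (-0.25 to 0.21, adjusted p = 0.91) and by 0.21 untreated (-0.02 to 0.44, adjusted p = 0.16). Under TPM scaling, which sets each library's summed length-scaled level equal, the WT AraC difference was 0.36 and passed (adjusted p = 0.027), and it also passed under scaling by plain read totals (0.33, adjusted p = 0.034).

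ABCC1 (MRP1, which exports glutathione conjugates and anthracyclines) had the highest level of the 6 and differed little between groups. The gene (ENSG00000103222) lies at chr16:15949577-16143074 on the plus strand. It stood at 11.93, 11.95 and 9.98 FPKM in KO AraC libraries, 12.5, 11.6 and 11.98 in untreated KO, 12.7, 12.4 and 11.7 in WT AraC and 11.96, 12.2 and 11.96 in untreated WT. The groups overlapped in all 4 comparisons, and the lowest value was again KO AraC replicate 3. The AraC difference was -0.09 in KO (95% interval -0.23 to 0.05, adjusted p = 0.28) and 0.02 in WT (-0.12 to 0.16, adjusted p = 0.79). The KO difference from WT was -0.12 with AraC (-0.26 to 0.02, adjusted p = 0.20) and -0.00 untreated (-0.15 to 0.14, adjusted p = 0.98). None of these passed in any of 24 alternatives.

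ABCB1 (P-glycoprotein, which expels anthracyclines and vinca alkaloids) was low in untreated cells and rose with AraC in WT cells. The gene (ENSG00000085563) lies at chr7:87503633-87713323 on the minus strand. It stood at 0.701, 0.833 and 0.975 FPKM in KO AraC libraries, 0.599, 0.571 and 0.403 in untreated KO, 1.33, 1.68 and 1.27 in WT AraC and 0.377, 0.589 and 0.450 in untreated WT. The AraC libraries lay above the untreated ones in both genotypes, the KO AraC libraries lay below the WT AraC libraries, and the untreated KO and WT libraries overlapped. Behind these values were 71, 83 and 94 reads in KO AraC, 55, 51 and 37 in untreated KO, 188, 173 and 130 in WT AraC and 34, 54 and 41 in untreated WT. ABCB1 entered the test only through the 3 WT AraC libraries, the only ones above 1 FPKM, so that a difference from them was built into its selection.

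The ratio of mean FPKM of ABCB1 between AraC and untreated was 1.60 in KO (0.836 ± 0.137 against 0.524 ± 0.106) and 3.02 in WT (1.43 ± 0.222 against 0.472 ± 0.107; SD, n = 3 each). On the log2(FPKM + 0.5) scale the AraC difference was 0.38 in KO (95% interval 0.04 to 0.73) and did not pass by limma with Benjamini-Hochberg adjustment (adjusted p = 0.070; 0.018 to 0.37 over 23 alternatives, of which 5 passed). In WT it was 0.99 (0.64 to 1.33, adjusted p = 0.00037) and passed in each of 23 alternatives; limma-voom on the recovered reads with no filter, which adds no pseudocount of this size, gave 0.67 in KO and 1.58 in WT. With AraC, KO differed from WT by -0.53 (-0.87 to -0.18, adjusted p = 0.027), a ratio of means of 0.586. That call was lost when any of 4 libraries was left out, with adjusted p = 0.092 without KO AraC replicate 1, 0.060 without KO AraC replicate 2, 0.053 without WT AraC replicate 1 and 0.11 without WT AraC replicate 2. Untreated, the KO difference was 0.08 (-0.27 to 0.42, adjusted p = 0.77). The difference of the AraC effects, KO minus WT, was -0.60 (-1.10 to -0.11) and did not pass the adjustment (unadjusted p = 0.021, adjusted p = 0.19; 0.095 to 0.35 over 22 alternatives), so a smaller AraC effect in KO was not shown.

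Genes beside ABCB1 on chromosome 7 moved in both directions. ABCB4, a phosphatidylcholine transporter of the same subfamily and the nearest tested neighbour on its side, rose with AraC by 0.43 in KO (adjusted p = 0.010) and by 0.72 in WT (adjusted p = 0.00034) in limma. ABCB4 also passed as higher in untreated KO than in untreated WT cells, by 0.56 (adjusted p = 0.0035), at means of 1.32 FPKM in untreated KO and 0.730 in untreated WT. CROT and SLC25A40, the next neighbours, rose in both genotypes, by 0.39 and 0.75 in KO and by 0.31 and 0.56 in WT. DBF4 fell by 0.30 in KO and by 0.28 in WT. Of the 9 tested protein-coding neighbours of ABCB1 within 2 Mb, 4 rose and 3 fell with AraC in each genotype. On chromosome 7 as a whole 17.5% of tested genes rose and 19.6% fell in KO, and 22.6% rose and 22.5% fell in WT, against 19.8% and 24.7% in KO and 24.1% and 25.6% in WT over all genes.

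ABCG2 (breast cancer resistance protein, which carries nucleoside analogues among many drugs) was near the limit of detection. The gene (ENSG00000118777) lies at chr4:88090264-88231322 on the minus strand. It had 5, 17 and 8 reads in KO AraC libraries, 0, 0 and 1 in untreated KO, 29, 10 and 11 in WT AraC and 6, 5 and 1 in untreated WT. AraC libraries were above the untreated ones in both genotypes, and untreated KO libraries lay at 0 or 1 read. A count of 0 allows up to 3 reads, which is 0.0244 to 0.0386 FPKM in these libraries. Summed over a group and scaled by library size, reads were 27.5 times higher with AraC in KO (30 reads against 1; exact 95% interval 4.58 to 1124) and 3.28 times higher in WT (50 reads against 12; 1.72 to 6.77). The KO to WT ratio was 0.700 with AraC (0.430 to 1.12) and 0.0833 untreated (0.00195 to 0.563). These intervals cover counting error only and not the spread between libraries. The gene had no value in the test with the filter. Without the filter the same limma model passed it in no comparison, with adjusted p = 0.061 for AraC in KO, 0.084 for AraC in WT, 0.61 for KO against WT with AraC, 0.51 for KO against WT untreated and 0.95 for the difference of the AraC effects. In that model the AraC differences were 0.28 in KO and 0.25 in WT. The added 0.5 exceeds every FPKM value of ABCG2 (at most 0.236) and so shrinks them. Not passing there does not show that the gene was unchanged. Limma-voom without a filter, an alternative chosen after seeing the data, gave adjusted p = 0.00033 for AraC in KO, 0.057 for AraC in WT, 0.56 for KO against WT with AraC, 0.039 for KO against WT untreated and 0.43 for the difference of the AraC effects.

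**Figure D3:**
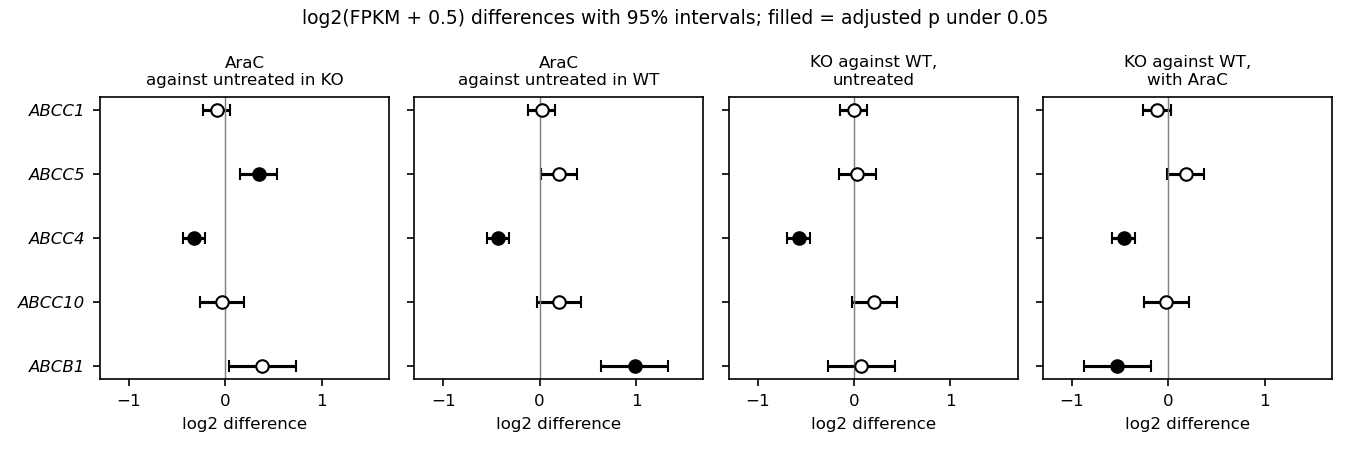
Differences in log2(FPKM + 0.5) with 95% intervals for the 5 tested exporters in the 4 comparisons, filled where the adjusted p was under 0.05. ABCC4 is filled and below 0 in all 4 panels, ABCB1 is filled in WT with AraC (0.99) and in KO against WT with AraC (-0.53), and ABCC5 in KO with AraC (0.35).

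Counted over the 5 tested exporters, AraC in KO gave 1 higher (ABCC5) and 1 lower (ABCC4), where 19.8% of all tested genes passed as higher and 24.7% as lower. AraC in WT gave 1 higher (ABCB1) and 1 lower (ABCC4), against 24.1% and 25.6% of all genes. KO against WT with AraC gave 0 higher and 2 lower (ABCB1 and ABCC4), against 15.4% and 14.8%. Untreated, it gave 0 higher and 1 lower (ABCC4), against 14.9% and 12.6%. For the difference of AraC effects 0 exporters passed in either direction by limma, against 0.887% higher and 1.8% lower. By unadjusted p under 0.05 there was 1 (ABCB1), and the share of all genes under that value was not counted. In limma-voom 0 exporters passed, where 243 of 13300 genes were higher and 382 lower. ABCB1 entered the test only through the WT AraC libraries, so that a difference from them was built into its selection. With 5 genes these counts are small, and nothing about the exporters as a group is read from them.

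The scaling of the libraries moved the split of calls over all genes. With the deposited scaling 2628 genes were higher and 3279 lower with AraC in KO, and 3200 higher and 3406 lower in WT. Under TPM scaling these were 4056 and 1755 in KO and 5537 and 1656 in WT, with the median of all genes shifted to 0.09 in KO and to 0.16 in WT. The same change gave 1353 higher and 3036 lower genes for KO against WT with AraC, in place of 2047 and 1971, and 94 higher and 493 lower for the difference of AraC effects, in place of 118 and 240. Under TPM scaling ABCC5 passed in WT as well (0.38, adjusted p = 0.011), as did ABCB1 in KO (0.46, adjusted p = 0.035), while the ABCC1 and ABCC10 differences in KO with AraC were 0.04 and 0.08 and so changed sign without passing. ABCC4 stayed lower in all 4 comparisons under each scaling.

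Of the 42 other ABC genes, 17 could be tested, and none of these belonged to subfamilies C or G, so ABCC1, ABCC4, ABCC5 and ABCC10 were the only tested ABCC genes. Of the other 25, 6 were at 0 in all libraries. With AraC 3 of the 17 were higher and 5 lower in KO (19.8% and 24.7% of all genes), and 4 were higher and 5 lower in WT (24.1% and 25.6%). These counts lie near the background, with medians of 0.07 in KO and -0.07 in WT against -0.03 and -0.01 over all genes. The genes that fell included ABCF1 (-0.45 in KO, -0.53 in WT), ABCF2 (-0.65 and -0.57) and ABCE1 (-0.40 and -0.39), which have no membrane segments and act in translation or ribosome recycling. The peptide transporter subunit TAP2 fell by 0.20 in KO and by 0.16 in WT. ABCA5 rose by 0.51 in KO and by 0.75 in WT, but it reached the filter only through the AraC libraries, so that a rise was built into its selection. TAP1, the partner of TAP2, rose in WT by 0.33 (adjusted p = 0.0011) and differed by 0.07 in KO (adjusted p = 0.41).

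Between genotypes the other ABC genes gave 1 higher and 1 lower call with AraC (ABCF1, 0.20, and ABCE1, -0.25) and 4 higher and 2 lower untreated, where 15.4% and 14.8% of all genes passed with AraC and 14.9% and 12.6% untreated. The untreated calls included ABCB4 (0.56), TAP1 (0.24), ABCB10 (-0.56) and ABCE1 (-0.24). ABCB10, a mitochondrial transporter needed for haem synthesis, averaged 11.7 ± 0.721 FPKM in KO AraC, 9.01 ± 0.536 in untreated KO, 12.6 ± 0.492 in WT AraC and 13.5 ± 1.03 in untreated WT (SD, n = 3 each). Of the 22 tested ABC genes 1, ABCB10, passed for the difference of the AraC effects between KO and WT (0.46, adjusted p = 0.027 in limma). Over all tested genes 0.887% passed as higher and 1.8% as lower for this difference. With 1 call, nothing about the family is read from it. ABCB8 and ABCB9 passed in none of the 4 comparisons, with AraC differences of 0.13 and 0.19 in KO and -0.07 and 0.16 in WT.

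**Figure D4:**
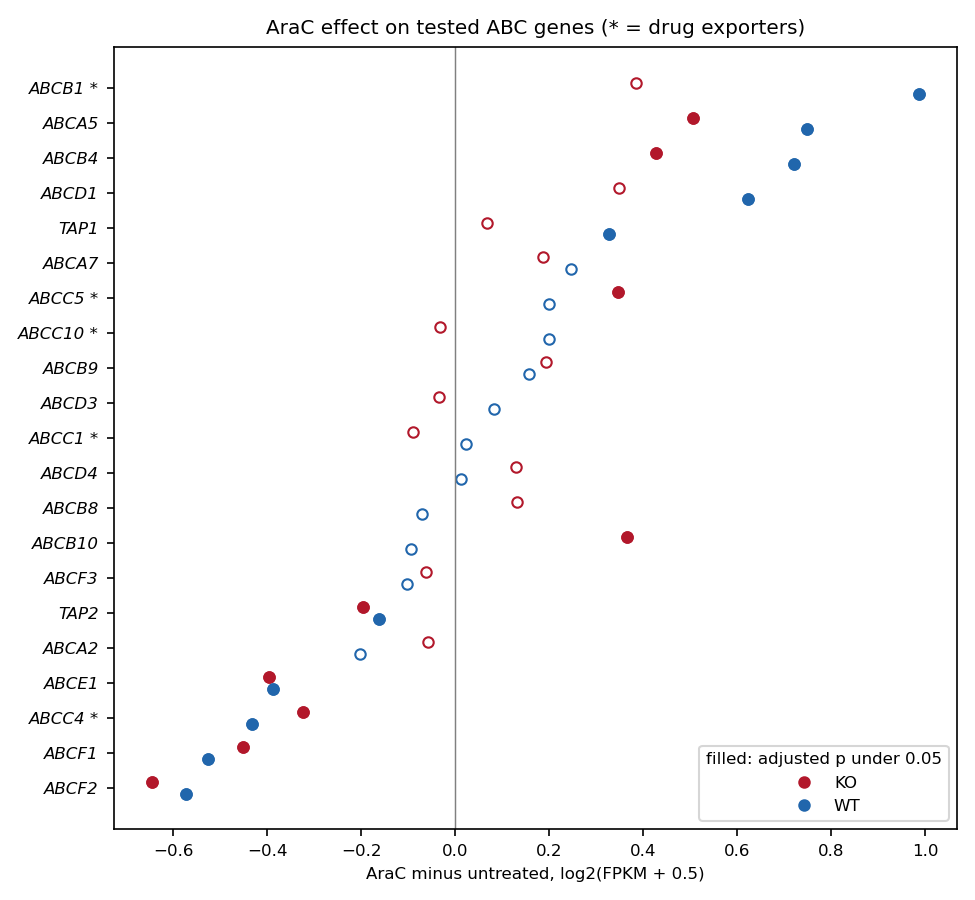
AraC minus untreated difference in log2(FPKM + 0.5) for the tested ABC genes reported here, in KO (red) and WT (blue), ordered by the WT value and filled where the adjusted p was under 0.05. Exporters carry an asterisk, ABCB1 lies at the top (0.38 in KO, 0.99 in WT) next to ABCA5 and ABCB4, and ABCC4 (-0.32 in KO, -0.43 in WT) lies near ABCE1 at the low end.

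Genes that work with the exporters on the same drug or substrates were described from lists. In the list for AraC uptake and metabolism 10 of 13 genes were tested, and AraC gave 0 higher and 5 lower in KO and 1 higher and 2 lower in WT. Over all tested genes these shares were 19.8% higher and 24.7% lower in KO, and 24.1% and 25.6% in WT. SLC29A1, a nucleoside importer, was lower in KO than in WT in limma, both untreated (-0.42, adjusted p = 2.4e-05) and with AraC (-0.13, adjusted p = 0.039). It fell with AraC in WT (-0.42, adjusted p = 1.2e-05) and in KO (-0.13, adjusted p = 0.027). Its AraC effects differed by 0.29 between KO and WT (adjusted p = 0.029), at means of 17.1 FPKM in KO AraC, 18.8 in untreated KO, 18.75 in WT AraC and 25.3 in untreated WT. SLC29A2, another nucleoside importer in the list, went the other way between genotypes. In limma it was higher in KO than in WT by 0.73 untreated (adjusted p = 0.0034) and by 0.47 with AraC (adjusted p = 0.032). Its level was lower, at means of 2.37 FPKM in KO AraC, 2.1 in untreated KO, 1.56 in WT AraC and 1.09 in untreated WT. DCK passed in no comparison. NME1, a nucleoside diphosphate kinase, fell with AraC by 0.75 in KO and by 0.66 in WT. SAMHD1, which hydrolyses the active triphosphate of AraC, was higher in KO than in WT by 0.87 with AraC and by 1.13 untreated. With AraC it fell by 0.27 in KO and differed by -0.02 in WT, which did not pass. KO against WT gave 3 higher and 1 lower with AraC, CMPK1 (0.26) among the higher, and 4 higher and 2 lower untreated, against 15.4% and 14.8% of all genes with AraC and 14.9% and 12.6% untreated.

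Glutathione genes, which supply the conjugates that ABCC1 exports, gave 7 higher and 1 lower of 15 tested with AraC in KO (19.8% and 24.7% of all genes) and 6 higher and 3 lower in WT (24.1% and 25.6%). CHAC1, an enzyme that degrades glutathione, rose by 2.43 in KO and 2.11 in WT, and SLC7A11, the cystine importer, rose by 1.22 and 1.55. Both reached the filter only through the AraC libraries, so that a rise was built into their selection. Between genotypes the list gave 5 higher and 1 lower with AraC (15.4% and 14.8% of all genes) and 2 higher and 4 lower untreated (14.9% and 12.6%). GGT7 was higher in KO by 0.92 with AraC and 1.18 untreated, SLC7A11 was lower with AraC (-0.84) and CHAC1 was lower untreated (-0.49). Enzymes of cyclic nucleotides, substrates of ABCC4 and ABCC5, gave 4 higher and 3 lower of 11 tested with AraC in KO (19.8% and 24.7% of all genes) and 2 higher and 3 lower in WT (24.1% and 25.6%). PDE7A, a cAMP phosphodiesterase, fell by 0.23 in KO and 0.24 in WT. The adenylyl cyclases ADCY3 (0.25 in KO and 0.11 in WT) and ADCY6 (0.37 in KO and 0.39 in WT) rose. In KO the cyclases ADCY7 and ADCY9 were lower than in WT (differences of -0.58 and -0.60 with AraC, and of -0.79 and -0.72 untreated), within 1 higher and 5 lower calls with AraC (15.4% and 14.8% of all genes) and 0 higher and 4 lower untreated (14.9% and 12.6%).

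Transcription factors described as acting on exporter promoters gave 3 higher and 5 lower of 17 tested with AraC in KO (19.8% and 24.7% of all genes) and 5 higher and 3 lower in WT (24.1% and 25.6%). JUN rose with AraC by 1.87 in KO and 3.17 in WT (means of 13.4 FPKM in KO AraC, 3.28 in untreated KO, 28.9 in WT AraC and 2.77 in untreated WT), and these effects differed by -1.29 (adjusted p = 0.0011). JUN was also lower in KO than in WT with AraC (-1.08, adjusted p = 6.4e-06). MYC fell by 1.25 in KO and 1.21 in WT. Between genotypes this list gave 2 higher and 3 lower with AraC and 5 higher and 1 lower untreated; FOXO1 was lower in KO (differences of -1.29 with AraC and -1.16 untreated), and ARNT was higher untreated (0.24). FOXO1 reached the filter only through WT libraries, so that its difference was built into its selection. It also lies on chromosome 13, much of which was lower in KO, and the part of that in its difference was not tested. Over all genes 15.4% passed as higher and 14.8% as lower with AraC, and 14.9% and 12.6% untreated. Scaffold and trafficking partners gave 1 higher and 1 lower of 9 tested with AraC in KO (19.8% and 24.7% of all genes) and 4 higher and 2 lower in WT (24.1% and 25.6%). Of the actin-linking proteins that anchor membrane transporters, RDX rose by 0.43 in KO and 0.47 in WT and MSN fell by 0.37 and 0.30. Between genotypes the scaffolds gave 2 higher and 1 lower with AraC (SLC9A3R1 0.28, SLC9A3R2 -1.24), where 15.4% and 14.8% of all genes passed, and 3 higher and 0 lower untreated (PIM1 0.43 and MSN 0.18 among them), where 14.9% and 12.6% did. SLC9A3R2 reached the filter only through the WT AraC libraries, so that its difference was built into its selection.

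The genes whose levels most resembled each tested exporter over the 12 libraries, by Pearson correlation of log2(FPKM + 0.5), were named as a description. The libraries share 4 groups and a common scaling, so high values are easily reached. For ABCC4 they were PLPBP (r = 0.99), LAPTM4B (0.99) and RORB (0.99), each lowest in KO AraC and highest in untreated WT libraries. LAPTM4B, for example, averaged 89.8 FPKM in KO AraC, 110.1 in untreated KO, 129.2 in WT AraC and 180.8 in untreated WT. For ABCB1 they were KLF10 (0.97), ANKRD42 (0.96) and TRAF5 (0.96), all highest in WT AraC, with KLF10 at 5.92 FPKM in KO AraC, 4.74 in untreated KO, 9.57 in WT AraC and 4.27 in untreated WT. For ABCC5 they were ZNF117 (0.95), SLC16A5 (0.95) and PHACTR2 (0.94), all highest in KO AraC. RORB averaged above 1 FPKM only in untreated WT (1.74), ANKRD42 only in WT AraC (1.30) and SLC16A5 only in KO AraC (1.58). Part of their likeness may thus be built in by the filter. ABCC10 was matched by HECTD4 (0.93), TEP1 (0.89) and VPS13C (0.89), and ABCC1, with its small differences, by IPPK (0.91), BOD1L1 (0.87) and ZFYVE9 (0.85). Among the exporters themselves r ran from -0.73 for ABCC4 with ABCC5 to 0.59 for ABCC10 with ABCC5.

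Neighbours of the other exporters were described by the same rule. FOPNL, beside ABCC1, fell with AraC by 0.31 in KO and 0.21 in WT, and NDE1 fell in KO by 0.20. NOMO3 and NPIPA7 belong to families of near-identical copies, so their counts are uncertain; neither passed. Beside ABCC5, EIF2B5 fell with AraC by 0.43 in KO and 0.50 in WT and DVL3 rose by 0.14 and 0.22. YEATS2 rose in WT by 0.11, and PARL did not pass (-0.23 in KO and -0.27 in WT, adjusted p = 0.13 and 0.069). The nearest genes to ABCC10, which were ZNF318, DNPH1, TJAP1 and YIPF3, passed in none of the 4 comparisons, as ABCC10 did not. The 5 neighbours of ABCC4 had median KO to WT differences of -0.36 with AraC and -0.28 untreated. No block of neighbours of ABCC1, ABCC5 or ABCC10 reached these in size, the largest being 0.18 for the 15 neighbours of ABCC1 untreated.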

How the data were processed

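The authors' deposited table gives FPKM per gene for all 12 libraries, with gene lengths. Per the submitters' processing notes, fastp, HISAT2 2.0.5 and featureCounts 1.5.0-p3 were used, with builds hg38 and GRCh38; the sources used here do not give their settings, the strandedness or the library preparation. FPKM multiplied by length returned whole reads (100% of values within 0.001 reads). The implied library sizes followed median-of-ratios factors, so the values already carry a scaling between libraries; the factor over the read total averaged 1.03 in KO AraC, 0.942 in untreated KO, 1.07 in WT AraC and 0.957 in untreated WT.

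Genes at 1 FPKM or more in 3 or more libraries entered 1 limma model (3.58.1, R 4.3.3) on log2(FPKM + 0.5), with a mean per group, a variance trend and 8 residual degrees of freedom. The two-sided p-values were adjusted by Benjamini-Hochberg over 13300 genes and a threshold of 0.05. The exporters, lists and rules were chosen with earlier results of these data known, so they give no independent support. Named were all exporters. From the other ABC genes came every tested ABCB member and up to 4 passing genes per comparison, and from each other list up to 2, by adjusted p where the higher group averaged 1 FPKM or more. The 3 genes most correlated with each tested exporter and the nearest 2 tested protein-coding neighbours on each side were added. TAP1, TAP2, SLC29A2, DCK and genes repeated from another comparison also appear. A gene that the rule names is not reported here. The model was also run on simulated reads with the same spread between replicates for every gene, which does not show its error rates in these data. Alternatives changed the pseudocount, filter, scaling, variance model, replicate block and libraries. Intervals on reads cover counting error only.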

Additional observations from a re-analysis of the deposited data

How the results depend on the processing

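Over the alternatives, 566 exporter differences kept their side of the threshold, 15 came to pass and 4 no longer passed. Of the 566, 11 changed sign, all of ABCC1 or ABCC10 and none passing in either setting. The 4 lost calls are ABCB1 in KO against WT with AraC. The number of exporters passing moved for AraC in WT (2) to 1 with a filter at 5 FPKM, which leaves ABCB1, ABCC10 and ABCG2 untested, and to 4 under TPM scaling and under plain read totals. For KO against WT with AraC (2) it was 1 with that filter and 1 to 3 when a library was left out. With limma-voom on recovered reads and no filter, chosen after seeing the data, it was 4 for AraC in KO (2) and 2 for KO against WT untreated (1). The number of genes whose AraC effects differed (358) was 587 under TPM scaling, 548 under plain read totals, 625 in limma-voom, 238 with the replicate block and 127 to 341 when a library was left out; the cause was not tested. Deviations of same-numbered libraries correlated weakly (r of -0.05 to 0.12 over 18 pairs), as did those of other pairs (-0.10 to 0.11 over 36). With 3 libraries per group these values cannot show whether the numbers pair the libraries. With the block ABCC5 passed for AraC in WT (0.20, adjusted p = 0.047), and no other exporter call changed. ABCB1 and ABCG2 rest on 34 to 188 and 0 to 29 reads per library, which limits their precision.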
